A study of Mus musculus with 10 samples.

Results

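Endothelial identity genes are genes whose transcripts mark the cells that line blood vessels. The 10 described here are Pecam1, Eng, Esam, Tie1, Emcn, Vwf, Cldn5, Egfl7, Ramp2 and Epas1. They were chosen by symbol, through the Ensembl identifiers of the tables, and are 10 of the 14854 genes measured in each library. RNA-seq was done on cells of adult mouse lung mesenchyme, the connective tissue compartment of the lung, after fluorescence-activated cell sorting. There were 10 libraries, 2 from each of 5 sorted groups that are called lineages.

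Axin2:Pdgfra, Axin2, Pdgfra and Negative cells came from mice of the genotype Axin2CreERT2:tdT:PdgfraEGFP. In this line, CreERT2, a recombinase that acts after tamoxifen, is driven by Axin2 and switches on the red tdT reporter, while the Pdgfra gene drives EGFP directly. Axin2:Pdgfra cells carried both labels, Axin2 cells and Pdgfra cells 1 label each, and Negative cells neither. Wnt2 cells came from another genotype, Wnt2CreERT2:R26REFYP, so that mouse line and lineage cannot be told apart for that group. The reporters mark driver activity, not a pure cell type, and a CreERT2 reporter also marks the descendants of the recombined cells. No source used here says if endothelial cells were removed before or during the sort. Nothing states that the paired libraries of a lineage came from different animals, so a p-value reflects the spread of these samples alone, which may be technical.

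Endothelial cells form a single layer inside every vessel, and in the lung a dense capillary bed lies against the alveoli. Their identity rests on junction proteins that seal the layer, on receptors that read vascular signals and on secreted proteins that act on blood and matrix. Transcription factors of the ETS family, with others, hold this programme in place. The level of such a transcript in a sorted population reflects both the share of endothelial cells and the RNA per cell, and in bulk samples fewer cells of a type and less RNA per cell cannot be told apart.

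All values are log2 values as deposited, and 1 log2 unit is a doubling. Depth is unknown because no counts are in the tables, and no interval for counting error can be given. The libraries had medians of 9.1 to 9.11 and a shared highest value of 19.25. Between 2.09% and 18.4% of genes sat at the lowest value of their library, with the largest shares in Negative library 2 (18.4%) and Axin2:Pdgfra library 2 (15%). All 10 genes passed the filter on low values, which asked for 2 or more libraries at a log2 value of 6 or higher and kept 14177 genes, and none was at the lowest value in any library. No source used here says whether values were divided by gene length, so levels are compared between libraries and never between genes.

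Apart from Eng, the endothelial genes had their highest mean in Negative or Pdgfra cells. All 10 had their lowest mean in Axin2:Pdgfra or Wnt2 cells. By lineage mean, Negative cells ranked at the top for 6 of the 10 genes and next to the top for the other 4. Pdgfra cells held the highest mean for 3 genes and Axin2 cells for 1, Eng. Axin2:Pdgfra cells had the lowest mean for 7 genes and Wnt2 cells for 3, Eng, Cldn5 and Ramp2. Negative library 2 alone held the highest single value of 7 of the 10 genes, and the comparisons with Negative cells depended on it in part, as given beside the counts over the 10 genes. All 10 libraries held endothelial transcripts: Cdh5, the adherens junction cadherin of endothelium, was at 12.33 or more and Kdr, a receptor for vascular endothelial growth factor, at 10.04 or more in every library.

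**Figure D1:**
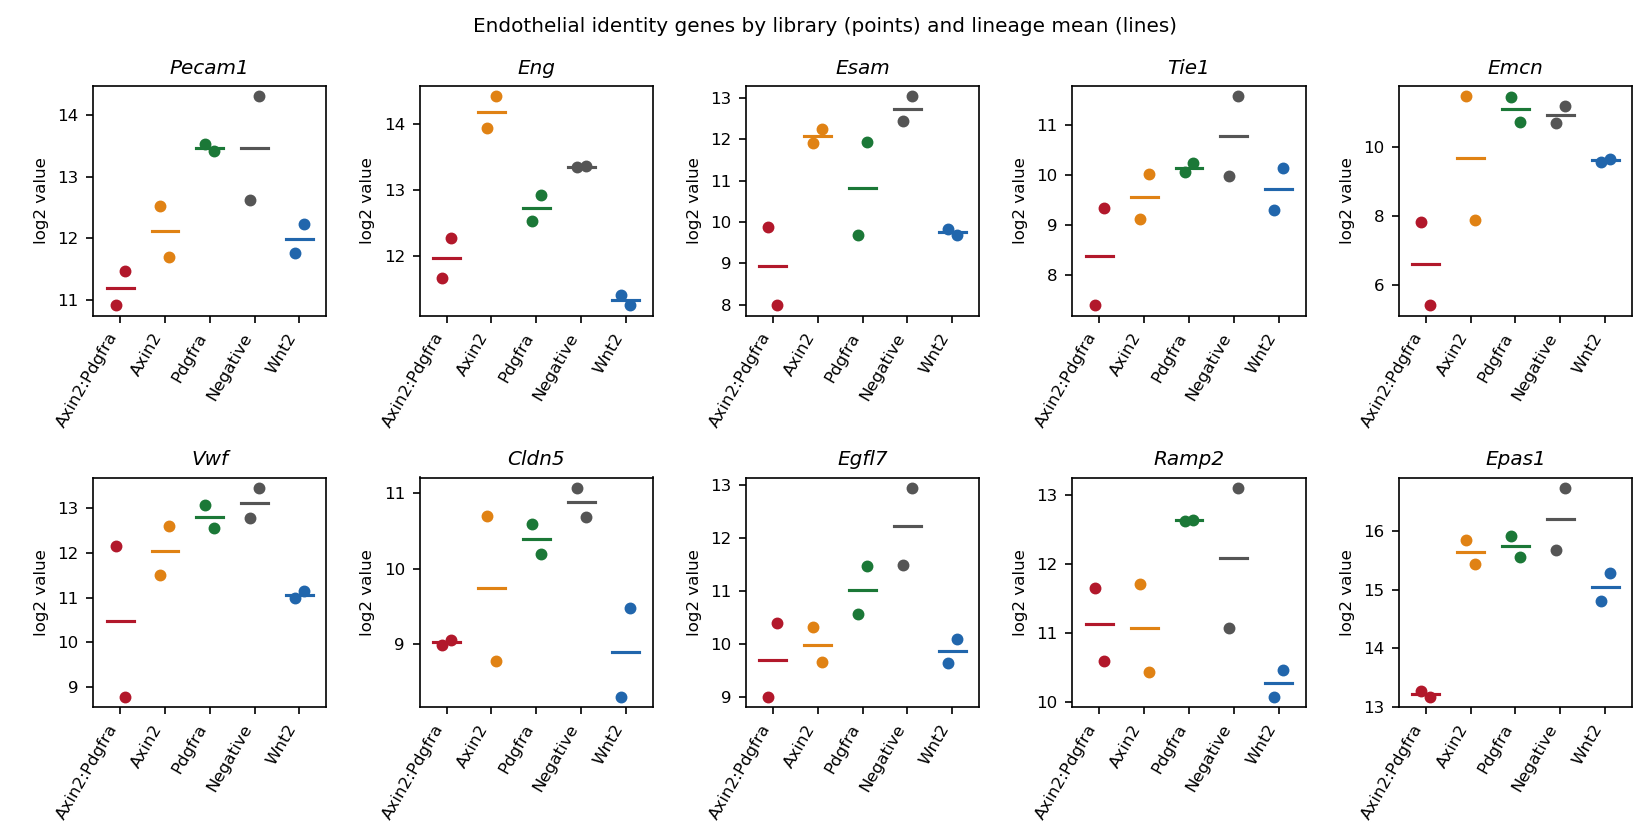
Log2 value of each of the 10 endothelial identity genes in the 10 libraries; points are libraries, horizontal lines are the means of the 2 libraries of a lineage, and each gene has its own vertical axis. Axin2:Pdgfra cells have the lowest mean for 7 genes, and the upper Negative point is library 2 for every gene but Cldn5.

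Differences between lineages were tested with limma, a linear model whose variance estimates are shared across genes, and p-values were adjusted by the Benjamini-Hochberg (BH) method over all 14177 genes in each comparison. A difference below an adjusted p of 0.05 is said to pass. The F-test over the 5 lineages passed for 4 of the 10 genes, Epas1, Eng, Esam and Pecam1, beside 8.2% of all genes. Without Wnt2 library 1 or Wnt2 library 2 the F-test passed for 2 of them. Across 13 contrasts and the F-test, 24 results passed, from 6 genes: Pecam1, Eng, Esam, Emcn, Egfl7 and Epas1. Tie1, Vwf, Cldn5 and Ramp2 passed in none, although Vwf and Ramp2 passed in some fits with a library left out. Of the 24 results, 7 held whichever library was left out. With limma's moderation run without its trend and robust options, 1 of the 24 still passed, the difference of Epas1 between Axin2:Pdgfra and Negative (adjusted p = 0.0462), and the other 23 had adjusted p-values of 0.0515 to 0.322.

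Promoter sequence was available for 5 of the genes in the RefSeq promoter table (build GRCm38.p6; the expression tables use mm9). They were Eng, Tie1, Emcn, Cldn5 and Egfl7, in 7 windows of 250 bases before an annotated start, since Egfl7 has 3 starts. ETS factors bind a GGAA core, and the windows were searched on both strands for it with the flanking letters CAGGAA or CCGGAA. They were searched too for ACAGGAA, where the longer letters resemble a forkhead site beside an ETS core and which always contains CAGGAA, and for TATAAA. The letters CAGGAA were found for 3 of the 5 genes, Emcn, Egfl7 and Tie1, and in 25.7% of all 32851 windows of the table. ACAGGAA was found for the same 3 genes and in 7.2% of all windows. CCGGAA and TATAAA were found for 0 of the 5 genes, beside 12% and 12.4% of all windows. Counted by window, 4 of the 7 held CAGGAA, and 4 held ACAGGAA. Sequences are shown for Emcn, the gene with the widest range over libraries, for the first of the Egfl7 starts, and for Eng, the gene whose profile was least like that of the others, with CAGGAA or its reverse complement TTCCTG in capitals. The CAGGAA matches begin 173 and 67 bases before the start in Emcn and 90 and 48 bases before it in Egfl7, and the Eng window holds none. The core GGAA with other flanking letters was not counted, and it does occur in the Eng window. A match is a description of letters, not a binding site, and no expression value bears on it.
Emcn, chr3:137340828-137341077, plus strand: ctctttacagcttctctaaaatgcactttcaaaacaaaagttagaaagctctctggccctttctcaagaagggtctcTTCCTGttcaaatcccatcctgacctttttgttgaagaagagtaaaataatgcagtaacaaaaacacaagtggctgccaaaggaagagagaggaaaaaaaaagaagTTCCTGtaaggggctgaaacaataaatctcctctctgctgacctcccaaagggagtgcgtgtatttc
Egfl7, chr2:26580833-26581082, plus strand: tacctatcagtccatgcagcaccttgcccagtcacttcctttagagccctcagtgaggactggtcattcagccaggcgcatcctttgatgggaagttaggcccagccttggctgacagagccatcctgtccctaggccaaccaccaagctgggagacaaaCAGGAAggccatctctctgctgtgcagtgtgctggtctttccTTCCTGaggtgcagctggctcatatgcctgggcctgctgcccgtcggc
Eng, chr2:32646345-32646594, plus strand: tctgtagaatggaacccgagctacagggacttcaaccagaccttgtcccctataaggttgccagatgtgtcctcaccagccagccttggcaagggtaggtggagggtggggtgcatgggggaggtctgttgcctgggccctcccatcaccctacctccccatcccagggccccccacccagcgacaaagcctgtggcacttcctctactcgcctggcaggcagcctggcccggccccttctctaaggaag

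Pecam1 (ENSMUSG00000020717) encodes CD31, an immunoglobulin-family adhesion protein at the contacts between endothelial cells that is also carried by platelets and some leukocytes. It was at 10.92 and 11.47 in Axin2:Pdgfra libraries 1 and 2, 12.53 and 11.70 in Axin2, 13.53 and 13.41 in Pdgfra, 12.62 and 14.30 in Negative libraries 0 and 2, and 11.76 and 12.23 in Wnt2. Both Axin2:Pdgfra libraries were below the other 8, and the Pdgfra libraries and Negative library 2 were the highest. In order of the means, Pdgfra cells (13.47 ± 0.08, SD, n = 2) and Negative cells (13.46 ± 1.18) overlapped, as did Axin2 cells (12.11 ± 0.59) and Wnt2 cells, while Negative cells were clear of Axin2 cells and Wnt2 cells clear of Axin2:Pdgfra cells (11.20 ± 0.39).

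Pecam1 fell by 2.26 ± 0.51 (log2 difference ± SE) from Negative to Axin2:Pdgfra cells, 4.8-fold (limma, adjusted p = 0.0155). The difference no longer passed without Axin2:Pdgfra library 1 (0.0954) or Negative library 2 (-1.43 ± 0.49; 0.132), and in a fit of the 4 libraries compared (0.0631). Against Pdgfra cells the difference was of the same size, -2.27 ± 0.51, and did not pass (adjusted p = 0.104), but it passed without either Negative library (0.0313 and 0.0365). Without Negative library 0, Pecam1 also passed for Axin2 minus Negative (-2.18; adjusted p = 0.0267) and for Negative minus Wnt2 (2.30; 0.0127). The main effect of the Axin2 label is the mean of Axin2:Pdgfra minus Pdgfra and Axin2 minus Negative, and for Pecam1 it was -1.81 ± 0.36 (adjusted p = 0.025). It ended without Axin2:Pdgfra library 1, Axin2 library 2, Pdgfra library 1, Pdgfra library 2 or Negative library 2 (adjusted p = 0.0617 to 0.164). The F-test for Pecam1 (adjusted p = 0.0311) ended in 7 fits, those without either Axin2:Pdgfra, Axin2 library 2, either Pdgfra or either Wnt2 library (0.0537 to 0.107).

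Esam (ENSMUSG00000001946), an adhesion molecule of endothelial tight junctions and platelets, separated the lineages differently. It was at 9.89 and 7.99 in Axin2:Pdgfra, 11.92 and 12.25 in Axin2, 9.69 and 11.95 in Pdgfra, 12.45 and 13.04 in Negative and 9.83 and 9.70 in Wnt2 libraries. The Axin2 and Negative libraries were high, the Axin2:Pdgfra and Wnt2 libraries were low, and the Pdgfra libraries fell on both sides. Negative cells (12.75 ± 0.42, SD, n = 2) were clear of Axin2 cells (12.09 ± 0.23), and no other neighbours in the order were clear of each other. In that order, Pdgfra cells (10.82 ± 1.60), Wnt2 cells (9.76 ± 0.09) and Axin2:Pdgfra cells (8.94 ± 1.35) followed.

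Esam fell by 3.81 ± 0.76 from Negative to Axin2:Pdgfra cells, 14-fold (adjusted p = 0.00801), a call that ended without Axin2:Pdgfra library 2 (0.0735) or Negative library 2 (0.0605). It fell by 3.15 ± 0.76 from Axin2 to Axin2:Pdgfra cells (adjusted p = 0.0471). That call ended without Axin2:Pdgfra library 2, either Axin2 library or either Wnt2 library (adjusted p = 0.0702 to 0.28), with values below 6 raised to 6 (0.0529), with the second index sequence as a covariate (0.0753) and in a fit of the 4 libraries compared (0.133). The main effect of the Pdgfra label, the mean of Axin2:Pdgfra minus Axin2 and Pdgfra minus Negative, was -2.54 ± 0.54 for Esam (adjusted p = 0.0111), and it ended without Axin2 library 2 (0.0584) or Pdgfra library 1 (0.0562). Esam was higher in Negative than in Wnt2 cells by 2.98 ± 0.76 (adjusted p = 0.034). This ended without either Axin2, either Negative or either Wnt2 library (adjusted p = 0.0549 to 0.194). Axin2 minus Wnt2 passed with array weights (2.32; adjusted p = 0.0177) and in a fit of the 4 libraries compared (0.0221). The F-test for Esam (adjusted p = 0.0223) ended without either Axin2 library, Negative library 2 or either Wnt2 library (0.0502 to 0.0716).

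Cldn5 (ENSMUSG00000041378) encodes claudin 5, a barrier-forming protein of endothelial tight junctions. It was at 8.99 and 9.06 in Axin2:Pdgfra, 10.69 and 8.78 in Axin2, 10.58 and 10.19 in Pdgfra, 11.06 and 10.68 in Negative and 8.31 and 9.48 in Wnt2 libraries. Negative cells were just clear of Pdgfra cells, and all lower neighbours overlapped. The difference between Axin2:Pdgfra and Negative cells was -1.85 ± 0.81 (95% interval -3.58 to -0.11; adjusted p = 0.202).

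Emcn (ENSMUSG00000054690) encodes endomucin, a mucin-like surface protein of capillary and venous endothelium, and it had the widest range of the 10 genes, 6.06 log2 units. It was at 7.83 and 5.41 in Axin2:Pdgfra, 11.47 and 7.89 in Axin2, 11.45 and 10.73 in Pdgfra, 10.68 and 11.19 in Negative and 9.57 and 9.66 in Wnt2 libraries. Both Axin2:Pdgfra libraries were below the other 8, and the 2 Axin2 libraries were 3.58 apart. Emcn fell by 4.32 ± 1.10 from Negative to Axin2:Pdgfra cells, 20-fold (adjusted p = 0.0295). The call ended without Axin2:Pdgfra library 2, either Pdgfra library or either Negative library (adjusted p = 0.0549 to 0.195), with libraries weighted by limma's array weights (0.0934) and in a fit of the 4 libraries compared (0.106). Against Pdgfra cells the difference was -4.47 ± 1.10 (95% interval -6.82 to -2.12), which did not pass (adjusted p = 0.138). Without Axin2 library 1 the main effect of the Axin2 label on Emcn passed (-3.76; adjusted p = 0.0407).

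Eng (ENSMUSG00000026814) encodes endoglin, a coreceptor for ligands of the TGF-beta and BMP family that is abundant in endothelium and is also found on stromal cells. It was at 11.66 and 12.27 in Axin2:Pdgfra, 13.94 and 14.42 in Axin2, 12.53 and 12.92 in Pdgfra, 13.35 and 13.36 in Negative and 11.41 and 11.25 in Wnt2 libraries. The 5 lineages did not overlap: Axin2 cells (14.18 ± 0.34, SD, n = 2) were followed by Negative cells (13.36 ± 0.01), Pdgfra cells (12.73 ± 0.28), Axin2:Pdgfra cells (11.97 ± 0.43) and Wnt2 cells (11.33 ± 0.11). Eng was the only 1 of the 10 genes with its highest mean in Axin2 cells.

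Eng was higher in Axin2 than in Wnt2 cells by 2.85 ± 0.36, 7.22-fold (adjusted p = 0.000602), and this held whichever library was left out (adjusted p up to 0.0246). The main effect of the Pdgfra label was -1.42 ± 0.26 (adjusted p = 0.00404) and also held in each of those fits (up to 0.0343), as did the F-test (adjusted p = 0.00139; up to 0.0182). Eng fell by 2.22 ± 0.36 from Axin2 to Axin2:Pdgfra cells (adjusted p = 0.00533), a call that ended without Axin2 library 2 (0.124). It was higher in Negative than in Wnt2 cells by 2.03 ± 0.36 (adjusted p = 0.00479), which ended without Wnt2 library 2 (0.052). From Negative to Axin2:Pdgfra cells it fell by 1.39 ± 0.36 (adjusted p = 0.0338). This last call ended in 7 of the 10 fits that left out a library: without Axin2:Pdgfra library 1, either Axin2, either Negative or either Wnt2 library (adjusted p = 0.0515 to 0.16). It ended with array weights (0.11) and in a fit of the 4 libraries compared (0.167) too. Between Axin2 and Pdgfra cells the difference was 1.45 ± 0.36 (95% interval 0.68 to 2.23; adjusted p = 0.0532). It passed with a stricter filter on low values (0.0468), with array weights (0.0311) and in a fit of the 4 libraries compared (0.038), and without either Axin2:Pdgfra or either Negative library (0.0403 to 0.047).

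Tie1 (ENSMUSG00000033191), an orphan receptor tyrosine kinase that acts with the angiopoietin receptor Tek, was at 7.39 and 9.35 in Axin2:Pdgfra, 9.11 and 10.02 in Axin2, 10.05 and 10.23 in Pdgfra, 9.98 and 11.58 in Negative and 9.30 and 10.14 in Wnt2 libraries. Each lineage overlapped its neighbours in the order of the means. The difference between Axin2:Pdgfra and Negative cells was -2.41 ± 0.87 (95% interval -4.28 to -0.54; adjusted p = 0.12), and it was -1.61 ± 1.01 without Negative library 2 (0.441).

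Ramp2 (ENSMUSG00000001240) is the partner protein that turns the receptor Calcrl into a receptor for adrenomedullin, a vascular peptide. It was at 11.65 and 10.60 in Axin2:Pdgfra, 11.70 and 10.44 in Axin2, 12.62 and 12.64 in Pdgfra, 11.07 and 13.10 in Negative and 10.08 and 10.46 in Wnt2 libraries. The Negative libraries lay on either side of the Pdgfra pair, and the Axin2:Pdgfra and Axin2 libraries overlapped fully. Between Pdgfra and Wnt2 cells, whose libraries did not overlap, the difference was 2.36 ± 0.66 (95% interval 0.94 to 3.78; adjusted p = 0.223; 0.0342 with array weights). Without Negative library 0, Ramp2 passed for Negative minus Wnt2 (2.83; adjusted p = 0.0205) and for the main effect of the Axin2 label (-1.76; 0.0343).

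Vwf (ENSMUSG00000001930) encodes von Willebrand factor, a clotting protein that endothelial cells store and secrete and that platelets also contain. It was at 12.17 and 8.78 in Axin2:Pdgfra, 11.52 and 12.60 in Axin2, 13.07 and 12.56 in Pdgfra, 12.78 and 13.46 in Negative and 10.99 and 11.14 in Wnt2 libraries. The Axin2:Pdgfra libraries were 3.38 apart, and library 1 was above both Wnt2 libraries while library 2 was the lowest of all 10. Axin2:Pdgfra minus Negative was -2.64 ± 0.79 (95% interval -4.34 to -0.95; adjusted p = 0.0613; 0.0294 with the second index sequence as a covariate). Axin2:Pdgfra library 1 decided this value: without it, the difference from Negative was -4.33 (adjusted p = 0.0019). In that fit Vwf also passed against Axin2 cells (-3.27; 0.0168), against Pdgfra cells (-4.03; 0.0188), for the main effects of the Pdgfra label (-1.79; 0.0164) and the Axin2 label (-2.54; 0.0149), and for Negative minus Wnt2 (2.05; 0.0242). The last passed without Axin2:Pdgfra library 2 (0.019) and in a fit of the 4 libraries compared (0.0495) too.

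Egfl7 (ENSMUSG00000026921) encodes a secreted protein of endothelial cells that acts in vessel tube formation. It was at 9.01 and 10.40 in Axin2:Pdgfra, 10.33 and 9.66 in Axin2, 10.57 and 11.47 in Pdgfra, 11.50 and 12.95 in Negative and 9.65 and 10.11 in Wnt2 libraries. Negative cells (12.22 ± 1.02, SD, n = 2) were clear of Pdgfra cells (11.02 ± 0.64), which were clear of Axin2 cells (9.99 ± 0.47), and the 3 lowest lineages overlapped. Egfl7 fell by 2.52 ± 0.71 from Negative to Axin2:Pdgfra cells, 5.74-fold (adjusted p = 0.0462). The call held without Axin2:Pdgfra library 2 or without Negative library 0 and ended without any of the other 8 libraries (adjusted p = 0.0594 to 0.26). It also ended with values below 6 raised to 6 (0.0503), with the index covariate (0.0554), with array weights (0.123) and in a fit of the 4 libraries compared (0.13). Egfl7 passed for Negative minus Wnt2 without Axin2:Pdgfra library 1 (2.35; adjusted p = 0.0479) or Negative library 0 (3.07; 0.0336), and for the main effect of the Axin2 label without Negative library 0 (-2.14; 0.035).

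Epas1 (ENSMUSG00000024140) encodes HIF-2alpha, an oxygen-regulated transcription factor that is abundant in lung endothelium and is also present in other lung cells. It was at 13.27 and 13.18 in Axin2:Pdgfra, 15.85 and 15.45 in Axin2, 15.92 and 15.56 in Pdgfra, 15.68 and 16.74 in Negative and 14.80 and 15.29 in Wnt2 libraries. The Axin2:Pdgfra libraries were at least 1.53 below every other library, and Wnt2 libraries were below all of the remaining 6. Negative cells (16.21 ± 0.75, SD, n = 2), Pdgfra cells (15.74 ± 0.26) and Axin2 cells (15.65 ± 0.29) overlapped, while Wnt2 cells (15.05 ± 0.34) and Axin2:Pdgfra cells (13.22 ± 0.07) each stood clear.

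Epas1 was lower in Axin2:Pdgfra cells than in each of the other 4 lineages. It fell by 2.99 ± 0.31 from Negative cells, 7.94-fold (adjusted p = 0.000127), and fell by 2.43 ± 0.31 from Axin2 cells, 5.38-fold (adjusted p = 0.0012). Both calls held whichever library was left out, with adjusted p-values up to 0.0027 and 0.0258. It fell by 2.52 ± 0.31 from Pdgfra cells (adjusted p = 0.00519), a call that ended without Pdgfra library 1 (0.389). It fell by 1.82 ± 0.31 from Wnt2 cells (adjusted p = 0.0165), which ended without either Axin2:Pdgfra library (0.0633 and 0.123), without Wnt2 library 2 (0.189) and in a fit of the 4 libraries compared (0.0681).

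Across both labels, the main effect of the Pdgfra label on Epas1 was -1.45 ± 0.22 (adjusted p = 0.00123) and held in every fit that left out a library, as did the F-test (adjusted p = 0.000318). The main effect of the Axin2 label was -1.54 ± 0.22 (adjusted p = 0.00676), and it ended without Axin2 library 2 (0.0691) or Pdgfra library 1 (0.0858). Between cells with a single label and cells with none, Axin2 minus Negative was -0.56 ± 0.31 (95% interval -1.23 to 0.11; adjusted p = 0.447) and Pdgfra minus Negative -0.47 ± 0.31 (-1.14 to 0.20; adjusted p = 0.465). The interaction of the labels, that is the Pdgfra difference with the Axin2 label minus that without it, was -1.96 ± 0.44 (95% interval -2.90 to -1.02; adjusted p = 0.271). In that comparison 0 of all genes passed (1296 at an unadjusted p below 0.05). Epas1 was also higher in Negative than in Wnt2 cells by 1.16 ± 0.31 (adjusted p = 0.0418), a call that held without Negative library 0 and ended without any of the other 9 libraries (0.0544 to 0.336; 0.63 ± 0.29 without Negative library 2) and in a fit of the 4 libraries compared (0.145).

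**Figure D2:**
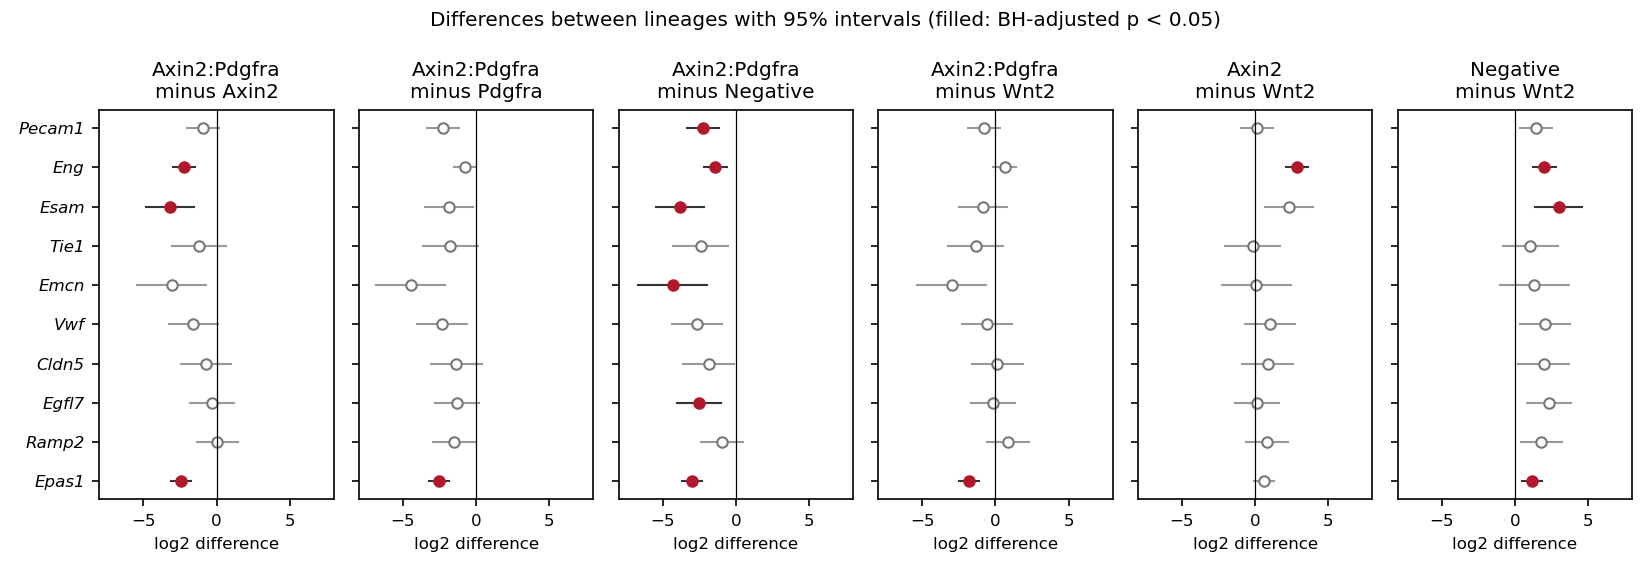
Log2 difference of each gene in 6 comparisons of lineages, with 95% intervals from the limma fit of 10 libraries; filled points have a BH-adjusted p below 0.05. In Axin2:Pdgfra minus Negative all 10 points are below 0 and 6 are filled, and in Negative minus Wnt2 all 10 are above 0 and 3 are filled.

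As a group, the 10 genes were lower in Axin2:Pdgfra than in Negative cells, where 6 of 10 passed and all 6 fell, beside 3.39% of all genes that fell. The median of the 10 differences was -2.46, beside 0.08 over all genes. All 10 differences were below 0. The count fell whichever library was left out, and most without Negative library 2, a fit that leaves Negative cells with 1 library. In that fit the median was -1.92, and 9 of the 10 were below 0, with Ramp2 at 0.06 ± 0.67. Eng was at -1.39 with and without it, and Esam went from -3.81 to -3.51 and Emcn from -4.32 to -4.07. Pecam1 went from -2.26 to -1.43 and Egfl7 from -2.52 to -1.80. With array weights 3 passed, and in a fit of the 4 libraries compared 2 passed.

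Against Axin2 cells, 3 of the 10 genes fell in Axin2:Pdgfra cells (Eng, Esam and Epas1; 1.38% of all genes fell), and the median was -1.39 beside 0.02 over all genes. Without Axin2 library 2 the count was 1. Against Pdgfra cells the median of the 10 was -1.83 beside 0.01 over all genes. At an unadjusted p below 0.05 were 6 of the 10, beside 1801 of all 14177 genes. In this comparison 6 genes, 0.0423% of all, passed and all of them fell. Of the 10, 1 gene passed, Epas1. That count was 0 without Pdgfra library 1 and 2 without Axin2:Pdgfra library 1 or either Negative library. Against Wnt2 cells, 1 gene fell (Epas1; 0.113% of all genes fell), with a median of -0.69 beside -0.06, and the count was 0 without either Axin2:Pdgfra library or Wnt2 library 2. Ramp2, Cldn5 and Eng had differences above 0 there, 0.86 ± 0.66, 0.13 ± 0.81 and 0.63 ± 0.36.

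Between Negative and Wnt2 cells, 3 of the 10 genes were higher in Negative cells (Eng, Esam and Epas1), beside 2.79% of all genes, and all 10 differences were above 0 (median 1.89 beside -0.12). The count was 5 without Negative library 0, 1 without either Axin2 library, Negative library 2 or Wnt2 library 1, and 0 without Wnt2 library 2. Without Negative library 2 the median was 1.35 and all 10 differences were above 0. Between Axin2 and Wnt2 cells 1 gene passed, Eng, higher in Axin2 cells, beside 2.25% of all genes.

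In the other comparisons of lineages no gene of the 10 passed in limma. Between Axin2 and Pdgfra cells the count was 0 (3 at an unadjusted p below 0.05; 2.26% of all genes passed), and it was 1, Eng, without either Axin2:Pdgfra or either Negative library. Between Axin2 and Negative cells it was 0 (3 at an unadjusted p below 0.05; 0.6% of all genes), and 1, Pecam1, without Negative library 0. The median of the 10 was -1.10, and -0.46 without Negative library 2. Between Pdgfra and Negative cells it was 0 (1 at an unadjusted p below 0.05; 2.91% of all genes), with a median of -0.48, which was 0.05 without Negative library 2. Between Pdgfra and Wnt2 cells it was 0 (5 at an unadjusted p below 0.05; 0.367% of all genes), although all 10 differences were above 0 (median 1.43 beside -0.09), and it was 2 with array weights, Eng and Ramp2. Without the trend and robust options all 4 counts were 0.

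For the main effect of the Pdgfra label, 3 of the 10 genes fell (Eng, Esam and Epas1), beside 2.93% of all genes. For the main effect of the Axin2 label the median was -1.52 beside 0.07. At an unadjusted p below 0.05 were 9 of the 10, beside 2478 of all 14177 genes. Of the 10, 2 fell and passed (Pecam1 and Epas1), beside 1.14% of all genes. The Axin2 count was 4 without Negative library 0, 1 without Pdgfra library 2 or Negative library 2, and 0 without Axin2 library 2 or Pdgfra library 1. For the interaction of the labels the count was 0 in limma and without its trend and robust options, and 0% of all genes passed. At an unadjusted p below 0.05 were 2 of the 10, beside 1296 of all 14177 genes. These comparisons share libraries, so their counts are not independent of each other.

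The labels give 2 index sequences per library, and the second index splits the libraries into 6 and 4, with both Axin2 libraries in the larger set. Within each set, all 10 genes were lower in Axin2:Pdgfra than in Negative cells, with medians of -1.58 and -3.26. All 10 were higher in Negative than in Wnt2 cells in each set too, with medians of 1.45 and 2.09. Axin2:Pdgfra minus Pdgfra was below 0 for 10 genes in one set and 9 in the other. Each of these within-set differences rests on 1 library a lineage and has no replicate check.

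The 10 genes moved together over the 10 libraries, in a description that carries no test because libraries of a lineage share their source. All 45 pairs had a Pearson correlation above 0, with a median of 0.60 and a range of 0.24 to 0.87. Pecam1 (r = 0.90) and Epas1 (0.89) followed the mean of the other 9 genes most closely. Egfl7, Cldn5, Emcn, Esam, Vwf, Tie1 and Ramp2 had values of 0.78 down to 0.67, and Eng had the lowest, 0.50.

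Eng and Esam ran closest to genes of mural cells, the contractile cells that wrap vessels. Eng had a correlation of 0.93 with the log2 summed level of a 16-gene pericyte list. Its correlation was 0.95 with Pdgfrb, the pericyte receptor for platelet-derived growth factor. For Esam these were 0.77 and 0.72. For the other 8 genes the correlation with the pericyte list was 0.10 to 0.48, and Pecam1 followed Cdh5 (0.97) rather than Pdgfrb (0.17). Correlations with the lists of other cell types were high too: 0.91 between Cldn5 and the epithelial list, and 0.92 between Pecam1 or Egfl7 and the immune list.

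**Figure D3:**
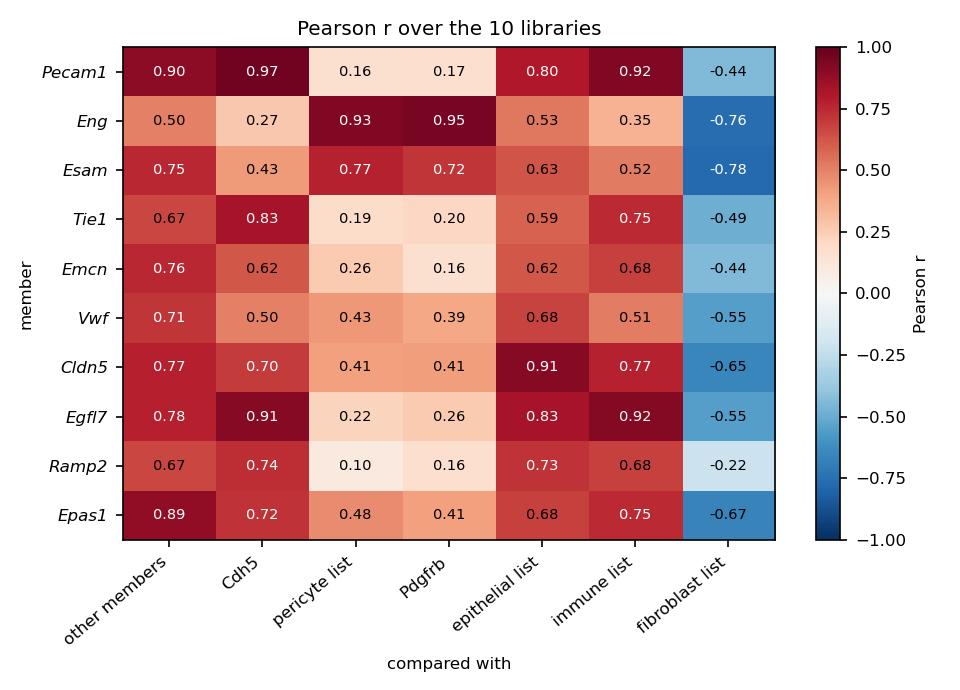
Pearson correlation over the 10 libraries of each endothelial identity gene (rows) with the mean of the other 9 genes, with Cdh5 and Pdgfrb, and with marker lists of other cell types (columns). Eng reaches 0.93 with the pericyte list and 0.50 with the other 9 genes, and all 10 genes are below 0 with the fibroblast list.

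Of the 14044 other genes compared, 38 (0.271%) had a correlation above 0.9 with the mean standardised level of the 10. The 10 highest were Sema3f, Dnaja3, Myo5c, Caskin2 and Plvap (each 0.95), Ctnnd1 and Scaf1 (0.94), and Sema7a, Gpihbp1 and mt-Nd5 (0.93). Plvap, which forms the diaphragms of capillary fenestrae and caveolae, and Gpihbp1, which carries lipoprotein lipase on capillaries, are endothelial genes. Plvap was at 8.49 and 7.58 in Axin2:Pdgfra, 10.16 and 9.00 in Axin2, 10.94 and 11.13 in Pdgfra, 9.85 and 12.38 in Negative and 8.15 and 9.70 in Wnt2 libraries. Negative library 2 had the highest value and Axin2:Pdgfra library 2 the lowest. Genes of other cell types had high correlations too: 0.92 for the immune gene Cd74 and 0.89 for the alveolar type 2 gene Sftpc. The median correlation was 0.73 for 20 other endothelial surface and signalling genes, 0.77 for 15 epithelial genes, 0.50 for 16 pericyte genes, -0.52 for 14 fibroblast genes and -0.04 over all genes.

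Of 67 other endothelial genes in 6 lists (surface and signalling, transcription factors, arterial, venous and activated, lymphatic, and lung capillary), 61 were tested. Between Axin2:Pdgfra and Negative cells 19 passed, 17 that fell and 2 that were higher, with a median of -1.88, beside 6.72% of all genes in either direction. The count was 6 without Negative library 2. Leaving out Axin2:Pdgfra library 2 gave 11, as did a fit of the 4 libraries compared, and it was 4 without limma's trend and robust options. Of the surface and signalling list 8 of 20 fell, and of the transcription factors 3 of 14 fell. Hey1, a Notch target, fell by 4.35 ± 0.84 (adjusted p = 0.0063), and Tspan18, an endothelial tetraspanin, fell by 4.10 ± 0.65 (adjusted p = 0.00188). Gja5, a gap junction connexin of arterial endothelium, went the other way and was higher in Axin2:Pdgfra cells by 4.51 ± 0.57 (adjusted p = 0.000403). These 3 calls held whichever library was left out (adjusted p up to 0.0447). Without the trend and robust options Gja5 (0.0411) and Hey1 (0.0461) passed and Tspan18 (0.0545) did not.

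Unc5b, a netrin receptor of arterial endothelium, fell by 4.14 ± 0.83 in the same comparison (adjusted p = 0.00819) and did not pass without Negative library 2 (0.0622). Gpihbp1 fell by 3.97 ± 0.80 (adjusted p = 0.00827) and Adgrl4, an adhesion receptor of endothelium, fell by 3.89 ± 0.73 (adjusted p = 0.00503). Both calls ended without Axin2:Pdgfra library 2 or Negative library 2 (adjusted p = 0.0527 to 0.0824).

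Between Axin2:Pdgfra and Axin2 cells 4 of the 61 genes passed, beside 2.3% of all genes, and they were all on the arterial list of 7, with Unc5b, Hey1 and Gja4 lower and Efnb2 higher. Gja4, a gap junction connexin of arterial endothelium that pericytes also carry, fell by 3.53 ± 0.60 (adjusted p = 0.00675), which ended without either Axin2 library (0.056 and 0.127). The Unc5b call ended without either Axin2:Pdgfra library or Axin2 library 2 (adjusted p = 0.0674 to 0.272), and the Hey1 call without Axin2:Pdgfra library 2 or either Axin2 library (0.0602 to 0.235). The Efnb2 call held without either Negative library and ended without any of the other 8 libraries (0.0638 to 0.24). The count was 0 without Axin2 library 2, 1 without Axin2 library 1 or Axin2:Pdgfra library 2, 2 without Axin2:Pdgfra library 1 and 7 without either Negative library. It was 0 without the trend and robust options, where the 4 genes had adjusted p-values of 0.0673 to 0.245. Between Axin2:Pdgfra and Pdgfra cells 33 of the 61 had an unadjusted p below 0.05, beside 1801 of all 14177 genes. Between Axin2:Pdgfra and Wnt2 cells 16 of the 61 did, beside 1875 of all genes. Without the trend and robust options 0 of the 61 passed in either comparison. With them on, 0 of the 61 passed in the first comparison and 0 in the second, beside 0.0423% and 0.635% of all genes. The first of these counts was 11 without Negative library 0, 9 without Negative library 2, 4 without Axin2:Pdgfra library 1, 2 with the index covariate, and 1 without either Axin2 library or with the stricter filter. The second was 1 without Axin2:Pdgfra library 1, either Axin2 or either Negative library or with the index covariate, and 3 with array weights. All of these genes fell.

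Between Negative and Wnt2 cells 9 of the 61 passed, 7 higher and 2 lower in Negative cells, beside 5.81% of all genes. Leaving out Negative library 0 raised the count to 19; leaving out Negative library 2 gave 6, and Wnt2 libraries 1 and 2 gave 4 and 5. Without the trend and robust options 1 of the 61 passed. Icam1, the leukocyte adhesion molecule of activated endothelium, was higher by 3.61 ± 0.40 (adjusted p = 0.000144) and Gja5 lower by 3.93 ± 0.57 (adjusted p = 0.00124). Both held whichever library was left out (adjusted p up to 0.0151), and without the trend and robust options Icam1 passed (0.0295) and Gja5 did not (0.0668). For the main effect of the Axin2 label 15 of the 61 passed, 14 of which fell, beside 1.64% of all genes in either direction. That count was 29 without Negative library 0, 9 without Axin2:Pdgfra library 2 or Pdgfra library 2, and 7 without Negative library 2. It was 1 when Axin2 library 2 was left out and 0 when Pdgfra library 1 was, and it was 0, as over all genes, without the trend and robust options. Tspan18 had the largest of these differences, -3.54 ± 0.46 (adjusted p = 0.0041), and did not pass without Pdgfra library 1 (0.0858).

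Markers of other cells moved with the same lineages, and their part in the results was not tested. As the log2 of the summed level, the 10 endothelial genes ran from 14.42 to 14.62 in Axin2:Pdgfra, 16.37 to 16.57 in Axin2, 16.46 to 16.64 in Pdgfra, 16.48 to 17.49 in Negative and 15.33 to 15.76 in Wnt2 libraries. The epithelial list (15 genes measured) ran from 15.49 to 15.52, 15.77 to 16.36, 16.62 to 17.21, 17.78 to 17.88 and 14.70 to 15.49 in the same order. It was thus highest in Negative cells, as were many endothelial genes. In the sum of the 10 endothelial genes Epas1, with the largest values, weighs most. As a median of those 10, Axin2:Pdgfra (9.87 to 10.40) and Wnt2 libraries (9.95 to 10.30) overlapped, and the others were at 11.07 to 13.07.

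The immune list (13 genes measured) had its highest value in Negative library 2, with Negative libraries at 15.31 to 16.09, and ran from 13.59 to 14.30 in Axin2:Pdgfra, 13.96 to 14.70 in Axin2, 15.03 to 15.32 in Pdgfra and 14.08 to 14.45 in Wnt2 libraries. The erythroid list (5 genes measured) was at 16.02 to 16.50 in Negative libraries and at 6.95 to 11.31 in the others. The pericyte list (16 genes) was at 18.84 to 19.09 in Axin2 and 17.14 to 18.22 in Negative libraries, against 14.80 to 15.32 in Axin2:Pdgfra, 15.34 to 15.45 in Pdgfra and 14.27 to 14.62 in Wnt2 libraries. The Axin2 and Negative lineages, high in this list, were those highest in Eng and Esam.

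The fibroblast list (14 genes) was at 18.99 to 19.05 in Axin2:Pdgfra and 18.75 to 19.09 in Wnt2 libraries, where the endothelial genes were lowest. It was at 17.65 to 17.71 in Axin2 and 16.90 to 17.32 in Negative libraries. Pdgfra libraries 1 and 2 were high in both, at 18.40 and 18.91 for this list and 16.64 and 16.46 for the endothelial genes. Among defining markers, Ptprc, the leukocyte antigen CD45, ran from 4.55 in Axin2:Pdgfra library 1 to 11.54 in Wnt2 library 1, and its 2 highest values were in the Wnt2 libraries. Epcam, an epithelial adhesion molecule, ran from the lowest value of its library, 1.55 in Pdgfra library 1, to 10.06 in Axin2:Pdgfra library 1. Pdgfra, the gene behind the EGFP label, was at 12.00 to 16.25. Platelets carry Pecam1, Esam and Vwf too. Of 10 platelet and megakaryocyte genes 4 were measured. In Axin2:Pdgfra libraries 2 to 4 of those 4 were at the lowest value, in Negative 2 to 3 and in the others 0 to 1. Their log2 summed level was highest in Negative library 2 (10.76). It was lowest in Axin2:Pdgfra library 2 (4.06), where all 4 were at the lowest value. Vwf was highest and lowest in the same libraries. The correlation with this list was 0.86 for Vwf, 0.69 for Esam, 0.49 for Pecam1 and 0.18 to 0.60 for the other genes. The part of platelets in these values was not tested.

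**Figure D4:**
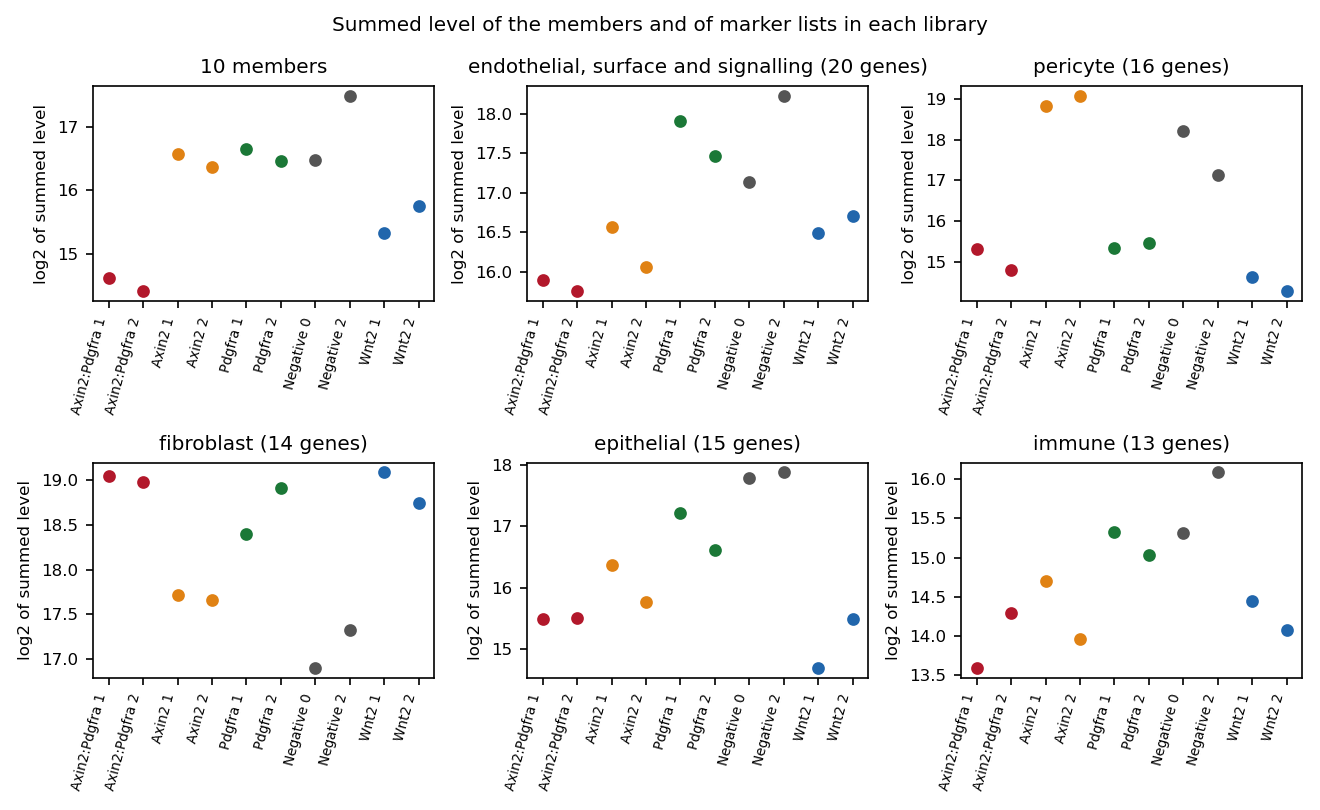
Log2 of the summed level of the 10 endothelial identity genes and of 5 marker lists in each library, with one colour a lineage and a separate vertical axis in each panel. The fibroblast list is at 18.75 or more in the Axin2:Pdgfra and Wnt2 libraries, where the 10 genes are lowest, and also in Pdgfra library 2 (18.91). The pericyte list is highest in the 2 Axin2 libraries.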

How the data were processed

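RNA-seq values of 10 libraries, 2 for each of 5 lineages, were used as the authors deposited them, as log2 values with 1 value per Ensembl identifier and library. The log2 scale was inferred from the values. The authors worked with STAR, limma and the build mm9, per the submitters' processing notes. Tool versions, annotation, the way reads were counted and the use made of limma were not given in the sources used here. All 10 tables share their highest value and have near-equal medians, which limits them to relative levels. They hold no counts, so depth is unknown.

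Groups and replicate numbers came from the sample titles, except for Pdgfra library 1, and the Negative replicates are 0 and 2. Pdgfra library 1 was assigned from a lineage label that reads GFP. That label gives neither the name Pdgfra nor a replicate number, so both were inferred. Of the 14854 identifiers, 14720 had a symbol and 134 did not. Genes were kept if 2 or more libraries had a log2 value of 6 or higher. A linear model with a mean for each lineage and 5 residual degrees of freedom was fitted to all 10 libraries with limma 3.58.1 in R 4.3.3 (lmFit, contrasts.fit and eBayes, trend and robust on). Tests were two-sided, with BH adjustment over genes in each comparison and a threshold of 0.05. The fit was tested on simulated data. Summaries were made with Python 3.11.15, pandas 2.3.3, numpy 2.4.6 and scipy 1.17.1, and figures with matplotlib 3.10.9. A list's summed level is the log2 of the sum of its genes' linear values, and a correlation with a list uses this summed level.

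The 10 genes and the marker lists were chosen with earlier results of these data known, so counts over them are descriptions. All 10 genes are named. Of the other endothelial genes, those named are among the 6 largest called differences of a comparison, beside the 10 genes most like the mean profile of the 10 and the defining markers of other cells. Alternatives were no filter, a stricter filter (at least 8), low values raised to 6, median centring, quantile normalization, eBayes without trend and robust, array weights, only the 4 libraries compared, the replicate number as a block, the second index as a covariate, and leaving out each library in turn.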

Additional observations from a re-analysis of the deposited data

Results flagged for a closer look

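The Eng difference between cells with and without the Axin2 label had opposite signs in the libraries with the Pdgfra label and in those without it, and neither difference passed. Among cells with the Pdgfra label, both Axin2:Pdgfra libraries (11.66 and 12.27) were below both Pdgfra libraries (12.53 and 12.92), and the difference was -0.76 ± 0.36 (log2 ± SE; limma, adjusted p = 0.403). Among cells without it, both Axin2 libraries (13.94 and 14.42) were above both Negative libraries (13.35 and 13.36), by 0.83 ± 0.36 (adjusted p = 0.322). The difference between these differences was -1.59 ± 0.51 (95% interval -2.69 to -0.49) and did not pass in the test of the interaction (adjusted p = 0.424). Pdgfrb was at 12.61 and 12.67 in Axin2:Pdgfra, 12.59 and 12.53 in Pdgfra, 16.32 and 16.94 in Axin2, and 15.49 and 15.02 in Negative libraries, and its part in the Eng values was not tested.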

How the results depend on the processing

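No called difference of the 10 genes changed sign under any alternative run. Their calls were made with 2 libraries a lineage, and the variance model decided most of them. Without limma's trend and robust options the number of the 10 genes that passed went from 4 to 0 in the F-test, from 3 to 0 for Axin2:Pdgfra minus Axin2, from 6 to 1 against Negative, from 1 to 0 against Pdgfra and against Wnt2, from 1 to 0 for Axin2 minus Wnt2, from 3 to 0 for Negative minus Wnt2 and for the Pdgfra label, and from 2 to 0 for the Axin2 label. Over all genes, 364 in place of 953 then passed between Axin2:Pdgfra and Negative cells, 95 in place of 326 between Axin2:Pdgfra and Axin2 cells, and 205 in place of 1163 in the F-test. With array weights the count was 3 for Axin2:Pdgfra minus Negative, 1 for Axin2 minus Pdgfra, 2 for Axin2 minus Wnt2 and 2 for Pdgfra minus Wnt2. In fits of the 4 libraries compared it was 2 for Axin2:Pdgfra minus Negative, 0 for Axin2:Pdgfra minus Wnt2, 1 for Axin2 minus Pdgfra and 2 for Axin2 minus Wnt2. The stricter filter gave 1 for Axin2 minus Pdgfra. No filter, low values raised to 6, median centring, quantile normalization and the index covariate moved none of these counts by more than 1.5 times.

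Leaving out a library gave counts of 2 to 5 in the F-test, 1 to 4 for Axin2:Pdgfra minus Axin2, 0 to 2 against Pdgfra, 1 to 4 against Negative and 0 to 1 against Wnt2. They were 0 to 1 for Axin2 minus Pdgfra and for Axin2 minus Negative, 1 for Axin2 minus Wnt2, 0 to 5 for Negative minus Wnt2, 2 to 4 for the Pdgfra label and 0 to 4 for the Axin2 label. They stayed at 0 for Pdgfra minus Negative, Pdgfra minus Wnt2 and the interaction. A lineage left with 1 library is assumed to vary like the others.

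The replicate numbers did not pair the libraries: differences of replicate 1 from replicate 2 had correlations of -0.0606 to 0.0279 across genes in 6 pairs of lineages, and Negative has no replicate 1. With the replicate block the counts were 2 for Axin2:Pdgfra minus Pdgfra, 1 for Axin2 minus Pdgfra, 1 for Axin2 minus Negative and 5 for the Axin2 label. Under this block, in which Negative replicate 0 fits itself, the Eng difference of Axin2:Pdgfra from Negative (adjusted p = 0.109), the Esam differences of Axin2:Pdgfra from Axin2 (0.0561) and of Negative from Wnt2 (0.085) and the Esam F-test (0.0538) did not pass.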
